A study of Mus musculus with 6 samples.

Results

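The genes described here encode TIGIT with the receptors and the ligand of its axis (Tigit, Cd226, Cd96, Pvrig and Pvr) and further inhibitory molecules of lymphocytes (Lag3, Havcr2, Cd160, Cd244a and Cd200). They were taken by name from the deposited count tables, and all 10 were found among 55401 genes. They were chosen by name with their fold changes and calls between the study's groups already known, so each gene's level in those groups is a description and carries no p-value. RNA was sequenced from splenic CD4+ T cells of mice. The cells were purified in the naive state on magnetic beads and then stimulated for 24 h with antibodies to CD3 and CD28. Of the 6 libraries, 3 came from control mice, whose genotype is labelled WT. The other 3 came from mice with floxed alleles of Satb1 on both chromosomes and CD4-Cre, called Satb1 cKO below. Cre under Cd4 regulatory sequences acts in the thymus, before CD4 and CD8 lineages separate, so the deletion precedes the isolation and activation of these cells. Whether the controls carried floxed alleles or Cre is not labelled, nor are age, sex and number of mice. The p-values below therefore reflect variation among these libraries alone, and part of it may be technical.

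TIGIT, found on T and NK lymphocytes, inhibits them when it binds CD155, the product of Pvr, on antigen-presenting and other cells. CD226 (DNAM-1) is an activating receptor for the same ligand, so that TIGIT, CD226 and CD96 compete for it, and PVRIG binds the related ligand nectin-2. LAG-3 binds MHC class II, TIM-3 (Havcr2) binds galectin-9 among other ligands, CD160 binds HVEM, CD244 (2B4) binds CD48, and CD200 is a ligand that restrains cells carrying the CD200 receptor. SATB1, the protein whose gene was deleted, organises chromatin in T lineage cells by binding AT-rich DNA.

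The upstream sequences of the 3 tested genes that were at least 2-fold higher in Satb1 cKO are shown, so that the letters before these starts can be compared. Each is the 250 bases before the RefSeq start site (GRCm38.p6), on the strand of the gene. Capitals mark matches, on either strand, to the RUNX motif TGTGGT, the AP-1 motif TGANTCA and the NFAT core GGAAA. The windows lie at chr16:43664185-43664434 (minus strand) for Tigit, chr3:96829352-96829601 (minus strand, before the outer of its start sites) for Cd160 and chr11:46454681-46454930 (plus strand) for Havcr2.
Tigit: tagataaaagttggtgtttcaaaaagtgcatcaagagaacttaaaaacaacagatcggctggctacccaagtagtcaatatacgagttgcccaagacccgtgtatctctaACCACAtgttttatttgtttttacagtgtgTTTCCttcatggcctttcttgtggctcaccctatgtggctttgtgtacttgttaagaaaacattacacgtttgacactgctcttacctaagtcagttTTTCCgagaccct
Cd160: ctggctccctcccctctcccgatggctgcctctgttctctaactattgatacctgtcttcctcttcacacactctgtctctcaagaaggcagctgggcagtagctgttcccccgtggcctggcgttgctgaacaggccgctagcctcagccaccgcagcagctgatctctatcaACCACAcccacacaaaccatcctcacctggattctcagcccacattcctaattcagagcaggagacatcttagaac
Havcr2: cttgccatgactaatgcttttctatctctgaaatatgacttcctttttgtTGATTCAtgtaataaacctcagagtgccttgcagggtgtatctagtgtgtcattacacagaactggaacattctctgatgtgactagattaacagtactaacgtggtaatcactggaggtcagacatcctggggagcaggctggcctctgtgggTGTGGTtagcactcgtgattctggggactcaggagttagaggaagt
The 3 windows each held 1 match to the RUNX motif. In all, 8 windows were used for 7 genes of the group, with a second one for Cd160 at chr3:96814522-96814771. Cd226, Pvr and Lag3, each lower in Satb1 cKO, are not among the 7. Cd226 was left out, and no window was held for Pvr and Lag3. Of the 8 windows used, 5 (Tigit, Cd96, Havcr2 and both of Cd160) held the RUNX motif, against 14.0% of all 32851 such windows. The AP-1 motif was found in the windows of Havcr2 and Cd244a and in 6.75% of all windows. The NFAT core was found in 5 of the 8 (Tigit, Cd96, Pvrig, Cd244a and the Cd160 window not shown) and in 55.6% of all windows. The NR4A motif AAAGGTCA, also counted, was found in 0 of the 8 and in 1.34% of all windows. A TATA motif, TATAAA, was found in 1 of the 8 (Cd96) and in 12.4% of all windows. Enrichment was not tested for any of these motifs. AT content was 60.0% upstream of Tigit and 58.8% upstream of Cd96, above that of 87.5% and 85.1% of all windows. For Cd200, which was higher in Satb1 cKO and had no RUNX match, it was 57.6%, above that of 82.1% of all windows. Upstream of Cd160 and Havcr2 it was 44.8% and 55.2%, against a median of 47.6% over all windows. Cd96, which was lower in Satb1 cKO, thus had the RUNX match and the high AT content as well. In the 3 windows shown no match shares letters with another, and a match is a run of letters, not evidence of binding.

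Libraries held 14895389 to 20266626 reads on genes. Satb1, the deleted gene, was lower in all 3 Satb1 cKO libraries than in all control libraries and stood at 62.6% of its control mean, in counts that can include exons Cre does not remove. The T cell genes Cd3e, Cd3d and Cd3g were each above 100 CPM (reads of a gene per 1000000 reads on genes, scaled by the trimmed mean of M values, TMM) in both group means. Of 12 genes of T cell identity, all tested, 9 fell (Cd4 and Cd3d among them) and 0 rose, and their sum ranged from 3577 to 3659 CPM in control and from 2465 to 2563 CPM in Satb1 cKO. Of 13364 genes with enough reads to be tested, 42.3% passed at an adjusted p under 0.05 (quasi-likelihood test of edgeR, Benjamini-Hochberg adjustment), 21.6% as higher and 20.7% as lower in Satb1 cKO. The median log2 fold change of all tested genes was 0.00. Among the 10 genes of the group, 8 had enough reads, of which 4 were called higher and 4 lower. Pvrig and Cd244a did not. These counts describe genes chosen with this contrast known, and nothing is read from them. In all 8 tested genes the groups did not overlap in CPM, which held for 53.4% of all tested genes (27.0% higher and 26.5% lower). At 2-fold or more, 3 were higher and 1 lower, against 5.24% and 2.93% of tested genes.

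Tigit (ENSMUSG00000071552.5, chromosome 16, 43648867 to 43664146, minus strand, GRCm38) stood at 6.74, 7.45 and 7.71 CPM in control replicates 1, 2 and 3. In Satb1 cKO replicates 1, 2 and 3 it stood at 138, 157 and 145 CPM, from 2629, 2740 and 2409 reads. Each Satb1 cKO library was thus far above each control library, and the spread within groups was small, with coefficients of variation of 6.86% and 6.42%. The log2 fold change was 4.34 (SE 0.075), or 20.2-fold. Only 35 tested genes had a larger log2 fold change, and 4 of those reached a mean of 1 CPM in control. In a bulk sample, more cells with Tigit and more Tigit RNA per cell cannot be told apart. Tigit is also a gene of regulatory T cells, and of 8 regulatory T cell markers 7 rose and 1 (Gpr83) fell in the same libraries. Their summed level ranged from 762 to 871 CPM in control and from 1338 to 1404 CPM in Satb1 cKO. Foxp3, which defines those cells, went from 22.2 ± 4.61 to 61.6 ± 6.64 CPM (SD, n = 3), a smaller ratio than that of Tigit. Foxp3 was a small part of each sum, most of which other genes of the list made up. Across all tested genes 21.6% rose and 20.7% fell, shares that stand beside the marker lists below as well. The part of regulatory T cells in the Tigit level was not tested.

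Cd226 (chromosome 18, 89176967 to 89272229), the activating counterpart of Tigit, went the other way. It stood at 164, 132 and 127 CPM in control replicates 1 to 3 and at 68.5, 60.5 and 59.5 CPM in Satb1 cKO replicates 1 to 3. Control replicate 1 was highest, and the groups were apart. The log2 fold change was -1.16 (SE 0.092), so that 44.7% of the control mean remained. Cd96 (chromosome 16, 46035657 to 46120251), a receptor with reported inhibitory and activating roles, stood at 51.7, 49.9 and 42.5 CPM in control and at 35.6, 35.3 and 35.6 CPM in Satb1 cKO. The Satb1 cKO libraries were nearly equal and all below the lowest control library, with a log2 fold change of -0.44 (SE 0.073). Pvrig (chromosome 5, 138341961 to 138343557), the nectin-2 receptor, was nearly unread. It had 1, 0 and 0 reads in control and 7, 0 and 1 in Satb1 cKO, a ratio of 7.63 with a 95% exact interval for counting error of 1.02 to 339 that rests on replicate 1. The ligand gene Pvr (chromosome 7, 19903578 to 19921160) stood at 42.9, 44.3 and 45.6 CPM in control and at 29.7, 31.7 and 29.2 CPM in Satb1 cKO. All Satb1 cKO libraries were lower, with a log2 fold change of -0.55 (SE 0.060). The libraries held reads of both a receptor and its ligand, with the receptor Tigit higher and the ligand gene lower in Satb1 cKO, and which cells carried the Pvr reads was not tested.

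**Figure D1:**
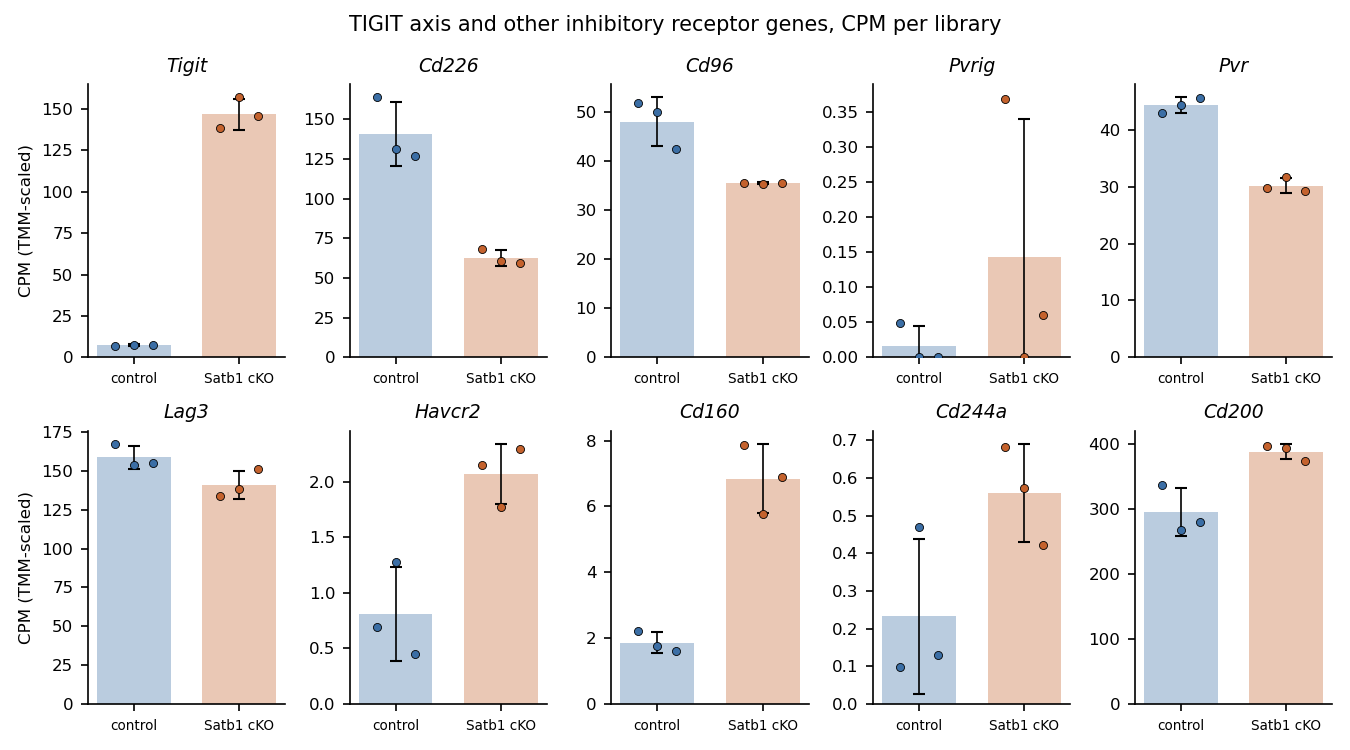
CPM of the 10 genes in each library (points), with the mean (bar) and SD (whisker, n = 3) for control and Satb1 cKO; each panel has its own axis from 0. Tigit, Havcr2, Cd160 and Cd200 sit higher and Cd226, Cd96, Pvr and Lag3 lower in all Satb1 cKO libraries, while Pvrig and Cd244a stay below 1 CPM.

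Levels of the competing receptors were compared per length, in reads per kilobase of exon and per 1000000 reads (RPKM). In control, Tigit RPKM was 0.219, 0.301 and 0.324 times that of Cd226 in replicates 1, 2 and 3. In Satb1 cKO the same ratio was 10.7, 13.8 and 13.0. The order of the activating and the inhibitory receptor transcript was thus reversed in every Satb1 cKO library. As a share of the RPKM summed over Tigit, Cd226 and Cd96, Tigit made up 13.7 ± 2.14% of the control sum and 84.5 ± 1.24% of the Satb1 cKO sum (SD, n = 3). Cd226 went from 48.9 ± 2.76% to 6.83 ± 0.820%, and Cd96 from 37.5 ± 1.77% to 8.62 ± 0.464%. The sum itself was 58.7 ± 5.43 RPKM in control and 189 ± 9.47 RPKM in Satb1 cKO.

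**Figure D2:**
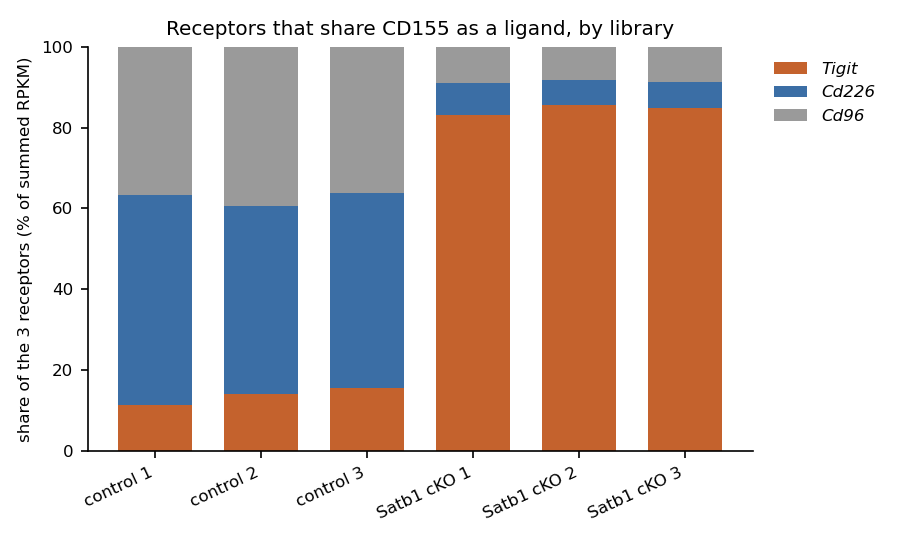
Share of Tigit, Cd226 and Cd96 in their summed RPKM (vertical axis, percent) in each of the 6 libraries. Tigit fills 11.4 to 15.6% of each control bar and 83.2 to 85.7% of each Satb1 cKO bar.

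Lag3 (chromosome 6, 124904361 to 124911705), a receptor for MHC class II that lies beside Cd4, stood at 167, 154 and 155 CPM in control and at 134, 138 and 151 CPM in Satb1 cKO. The highest Satb1 cKO library and the lowest control library were close, and the log2 fold change was -0.17 (SE 0.055), the smallest of the 8 tested genes. Lag3 was no longer called when Satb1 cKO replicate 1 or 2 was left out. Havcr2 (chromosome 11, 46454935 to 46481255), encoding TIM-3, was near the limit of reading. It had 14, 19 and 7 reads in control (0.689, 1.28 and 0.454 CPM) and 41, 31 and 38 in Satb1 cKO (2.15, 1.77 and 2.29 CPM). The Satb1 cKO libraries were all higher, with a log2 fold change of 1.37 (SE 0.339). TIM-3 is also a receptor of myeloid and dendritic cells, and the myeloid markers of these libraries moved too. Of 15 myeloid markers 10 were tested, 9 rose and 1 fell, and their summed level ranged from 46.4 to 52.4 CPM in control and from 86.8 to 184 CPM in Satb1 cKO. In Satb1 cKO replicates 1, 2 and 3 that sum was 145, 86.8 and 184 CPM, the same order of libraries as for Havcr2. In control replicates 1, 2 and 3 it was 46.4, 52.4 and 49.1 CPM, which was not the order of Havcr2 there. Of 10 dendritic cell markers 5 were tested, 2 rose and 0 fell, with sums of 879 to 951 and 826 to 960 CPM that Ccr7, a T cell gene as well, mostly made up. The part of these cells in the Havcr2 level was not tested.

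Cd160 (chromosome 3, 96798763 to 96829351), a GPI-anchored receptor of NK, gamma-delta T and cytotoxic T cells, stood at 2.22, 1.75 and 1.62 CPM in control and at 7.88, 5.78 and 6.88 CPM in Satb1 cKO. The groups were apart, with a log2 fold change of 1.86 (SE 0.194), or 3.63-fold. Of 12 NK cell markers only 3 had enough reads, 2 of which (Eomes and Prf1, also expressed by T cells) rose and 0 fell. Their summed level ranged from 7.98 to 12.8 CPM in control and from 23.3 to 30.7 CPM in Satb1 cKO. Ncr1, which defines NK cells, had 20 reads in control and 17 in Satb1 cKO. Gamma-delta T and NKT cell markers summed to 7.97 to 11.2 CPM and 20.5 to 26.6 CPM, with 4 of 5 tested genes higher. CD8 T cell markers summed to 98.3 to 106 CPM and 209 to 220 CPM, with 5 of 6 tested genes higher. Runx3, which is also on the transcription factor list below, made up most of the CD8 sum in both groups. None of the genes on these 3 lists was at 0 in all control libraries. Cd160 and the NK, gamma-delta and CD8 lists were each highest in Satb1 cKO replicate 1 and lowest in replicate 2. In control, Cd160 was highest in replicate 1 and each of the 3 lists in replicate 2. Prf1 is on both the NK and the CD8 list. The part of NK, gamma-delta T, NKT and CD8 T cells in the Cd160 level was not tested.

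Cd244a (chromosome 1, 171559193 to 171609746), a SLAM family receptor, had 2, 7 and 2 reads in control and 13, 10 and 7 in Satb1 cKO. The groups overlapped in reads, and the summed ratio was 2.60 with a 95% exact interval for counting error of 1.27 to 5.75. Its body overlaps that of Ly9 on the other strand from 171588624 to 171607410, and Ly9 had 6975 and 4850 reads, so that reads from the shared stretch cannot be told apart where counting ignores strand. Pvr overlaps Gm16184 (121 reads in control and 83 in Satb1 cKO) and Gm16251 (4 and 4), and Cd160 overlaps Pdzk1 (11 and 16). Cd200 (chromosome 16, 45382135 to 45409053), the ligand of the group that is most read, stood at 337, 268 and 280 CPM in control and at 396, 393 and 374 CPM in Satb1 cKO. The lowest Satb1 cKO library was above the highest control library, with a log2 fold change of 0.39 (SE 0.072), or 1.31-fold.

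By RPKM, the order in control from the highest was Cd200 (88.8), Lag3 (75.3), Cd226 (28.8), Cd96 (22.0), Tigit (7.95), Pvr (7.23), Cd160 (0.704), Havcr2 (0.296), Cd244a (0.0477) and Pvrig (0.0152). Tigit and Pvr overlapped in range, as did Cd244a and Pvrig, and the other neighbours in this order did not. In Satb1 cKO, Tigit came first with 160 RPKM, above Cd200 (117) and Lag3 (66.9). Cd96 (16.3) then stood above Cd226 (12.9), the reverse of their order in control, followed by Pvr (4.93), Cd160 (2.59) and Havcr2 (0.762). Only Pvrig and Cd244a overlapped as neighbours in that order. Tigit was the gene that moved furthest in rank, from place 5 to place 1. The length used was the union of a gene's annotated exons, and these orders depend on it. In CPM, the Satb1 cKO mean of Cd200 (387) was above that of Tigit (147), and that of Cd226 (62.8) above that of Cd96 (35.5).

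**Figure D3:**
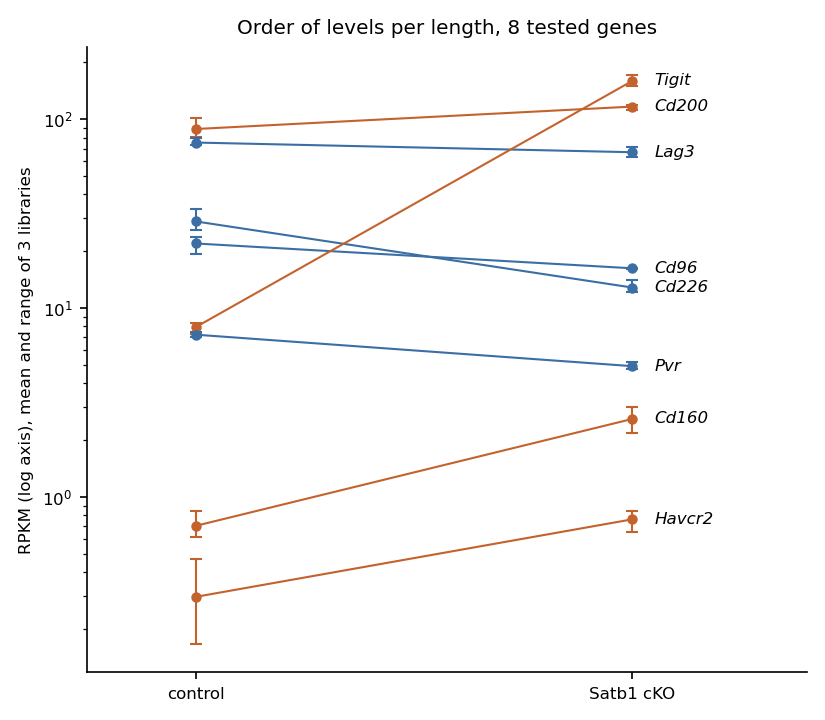
Mean RPKM (log axis) with the range of 3 libraries for the 8 tested genes in control and Satb1 cKO; orange lines are higher and blue lines lower in Satb1 cKO. The Tigit line starts beside that of Pvr at 7.95 and ends above that of Cd200 at 160, and the lines of Cd226 and Cd96 cross.

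Among 11266 other protein-coding tested genes, the 5 most like Tigit were Endou, Ramp3, Slc6a19, Myo1f and Sostdc1. Likeness was the root mean square difference of 6 log2 CPM values (prior count 2), each less the gene's control mean, and ran from 0.253 for Endou to 0.449 for Sostdc1. The prior count draws values near 0 together, so likeness on this scale is not likeness of the fitted log2 fold changes, which were 5.30 for Endou, 4.01 for Ramp3, 4.50 for Slc6a19, 3.90 for Myo1f and 5.89 for Sostdc1, against 4.34 for Tigit. None of these genes reached the CPM of Tigit. Endou went from 0.127 ± 0.076 to 4.97 ± 0.265 CPM, Ramp3 from 0.999 ± 0.100 to 16.1 ± 2.27 CPM and Myo1f from 1.81 ± 0.427 to 26.6 ± 3.58 CPM (SD, n = 3).

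Of the ligands and counter-receptors of the group, apart from Pvr and Cd200, 12 of 20 were tested, of which 4 rose and 3 fell, or 58.3% against 42.3% of all tested genes (median log2 fold change 0.15). The CD244 ligand gene Cd48 averaged 72.1 ± 0.646 CPM in control and 64.9 ± 6.94 CPM in Satb1 cKO. It did not pass (adjusted p = 0.0982 in edgeR) but did without Satb1 cKO replicate 2 (adjusted p = 0.0064) and with no filter on low counts (adjusted p = 0.0226). Lgals9, encoding the TIM-3 ligand galectin-9, fell from 81.7 ± 9.23 to 61.0 ± 2.07 CPM. Tnfrsf14, encoding HVEM, the partner of CD160 and BTLA, fell from 43.9 ± 6.08 to 32.8 ± 2.80 CPM. The LAG-3 ligand genes H2-Aa, H2-Eb1 and H2-Ab1 rose, H2-Aa from 8.55 ± 1.02 to 20.2 ± 6.20 CPM (log2 fold change 1.25, SE 0.206), as did Lgals3 (1.96, SE 0.305). MHC class II is made mainly by B and myeloid cells, whose markers summed to 5.32 to 11.0 and 46.4 to 52.4 CPM in control and 12.7 to 15.3 and 86.8 to 184 CPM in Satb1 cKO. Of 10 B cell markers 6 were tested, 2 rose and 0 fell, and the part of either cell type was not tested. Red cell markers, with 7 of 7 tested genes higher, summed to 25.4 to 32.0 CPM in control and 310, 1864 and 1612 CPM in Satb1 cKO replicates 1, 2 and 3, and their part in these results was not tested. Nectin2, the ligand of PVRIG, was not tested, with 4 reads in control and 17 in Satb1 cKO. Cd200r1, the receptor of CD200, averaged 1.96 ± 0.247 CPM in control and 2.68 ± 0.139 CPM in Satb1 cKO, which did not pass (adjusted p = 0.0958 in edgeR).

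Of 15 tested genes of other co-inhibitory receptors and ectoenzymes 8 rose and 4 fell, or 80.0% against 42.3% of all tested genes. Pdcd1 (PD-1) rose, at 51.2 ± 12.1 CPM in control and 307 ± 21.9 CPM in Satb1 cKO, with an adjusted p of 7.15e-08 in edgeR (log2 fold change 2.57, SE 0.126). Nt5e, encoding the adenosine-forming ectoenzyme CD73, rose from 14.1 ± 0.732 to 51.7 ± 4.50 CPM. Ctla4, encoding a competitor of CD28, fell from 204 ± 2.74 to 120 ± 6.89 CPM, and Btla, whose product shares HVEM with CD160, fell with a log2 change of -0.76 (SE 0.076). The list's median log2 fold change was 0.14.

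Relatives of CD244, TIM-3 and CD96 also went both ways, with 4 higher and 3 lower of 8 tested, or 87.5% against 42.3% of all tested genes. Slamf6, a SLAM receptor that signals through SAP as CD244 does, fell from 168 ± 10.9 to 82.7 ± 2.37 CPM, and Ly9 of the same family fell too (-0.59, SE 0.046). Slamf7 rose from 20.2 ± 2.00 to 39.2 ± 5.49 CPM, and Crtam, a nectin-like receptor of cytotoxic cells, rose from 2.47 ± 0.860 to 19.5 ± 2.65 CPM. Havcr1 and Timd4, the other TIM genes beside Timd2, had 0 control reads and were not tested.

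Of 21 tested cytoplasmic partners of these receptors 5 rose and 6 fell, or 52.4% against 42.3% of all tested genes, and the list's median log2 fold change was -0.07. Sh2d1a, encoding SAP, the adaptor of CD244 and other SLAM receptors, had the largest rise of this list, from 40.5 ± 3.10 to 96.8 ± 4.60 CPM (log2 fold change 1.26, SE 0.063). Plcg1, encoding a phospholipase downstream of the T cell receptor, fell with -0.64 (SE 0.045), Ubash3a with -0.41 (SE 0.044), and Lck with -0.24 (SE 0.036). Dok1 rose with 0.53 (SE 0.072). Inpp5d, encoding the phosphatase SHIP-1 that TIGIT's tail recruits, rose slightly, from 98.1 to 116 CPM. The phosphatase genes Ptpn6 and Ptpn11 did not pass.

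Transcription factors that have been linked to inhibitory receptor expression had the largest share of calls among the 5 lists, 15 higher and 2 lower of 19 tested, or 89.5%. Their median log2 fold change was 1.09, against 0.00 for all tested genes. Ikzf2, encoding Helios, rose from 24.7 ± 0.724 to 74.0 ± 4.40 CPM, with an adjusted p of 1.28e-08 in edgeR (log2 fold change 1.59, SE 0.062), and Tox from 26.8 ± 1.48 to 73.2 ± 5.89 CPM. Maf and Prdm1, factors of a shared co-inhibitory receptor programme in T cells, rose with log2 fold changes of 2.59 (SE 0.165) and 1.20 (SE 0.176). Runx3 rose from 71.1 ± 3.58 to 141 ± 4.61 CPM. Tcf7, a factor of naive and memory T cells, fell from 842 ± 38.1 to 540 ± 12.3 CPM. Ikzf2 and Foxp3 are also regulatory T cell markers, whose summed levels are given with Tigit. Eomes is also on the NK list and Runx3 on the CD8 list, so these lists do not give separate evidence. Over the 5 lists together, 36 of 75 tested genes rose and 18 fell, or 72.0%, against 42.3% of all tested genes. The lists were written with results of these data known, so that the share describes the listed genes only.

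**Figure D4:**
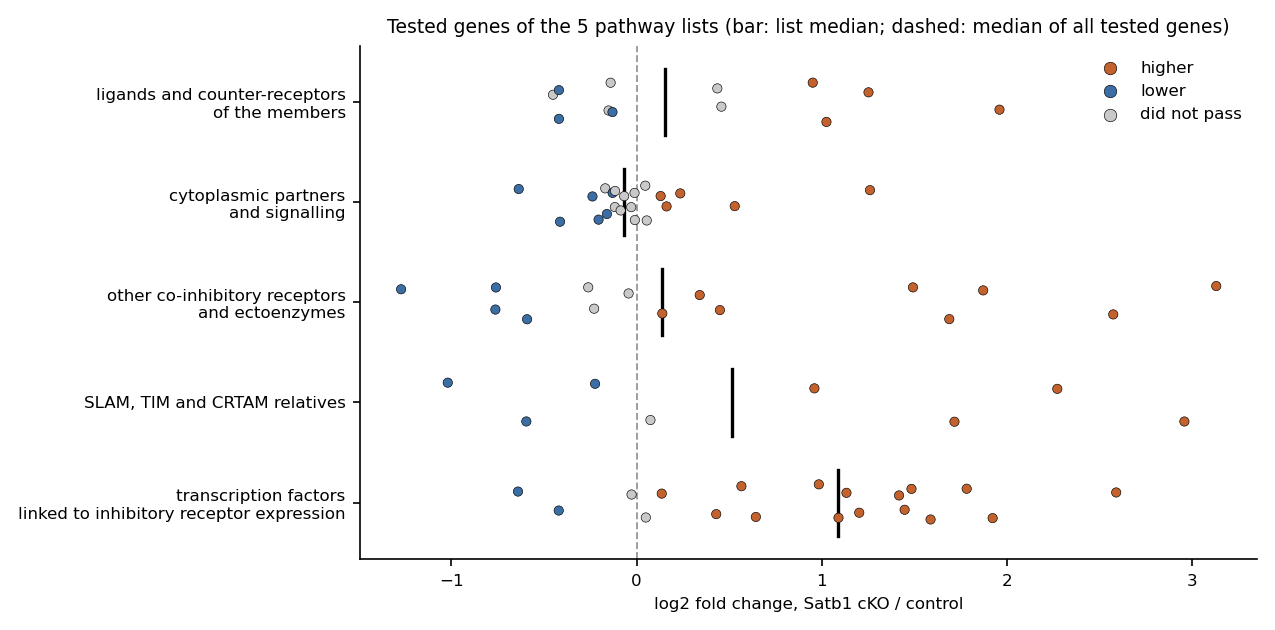
Log2 fold change (horizontal axis) of each tested gene in the 5 lists, with the list median as a black bar and the median of all tested genes as a dashed line. The transcription factor list has its median at 1.09, while that of the cytoplasmic partners is at -0.07, close to the dashed line.

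Tigit, Cd200 and Cd96 lie within 2.47 Mb of chromosome 16, and Btla and genes of the CD200 receptor lie between them. Their neighbours did not share the size of the Tigit difference. Within 500 kb of Tigit 7 other genes were tested: 3 rose and 2 fell, or 71.4% against 42.3% of all tested genes. The median log2 fold change of these 7 was -0.08. Zbtb20, encoding a zinc finger factor, ends 6.26 kb from Tigit and fell (-0.38, SE 0.098), and Qtrt2, 197 kb to the other side, rose (0.42, SE 0.074). Across the stretch with 500 kb on both sides, 25 further genes passed the read filter, 5 higher and 8 lower, at a median of -0.19. Of all tested genes, 21.6% were called higher and 20.7% lower. Sidt1 and Btla had log2 fold changes of -0.84 and -0.76 (SE 0.082 and 0.076).

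**Figure D5:**
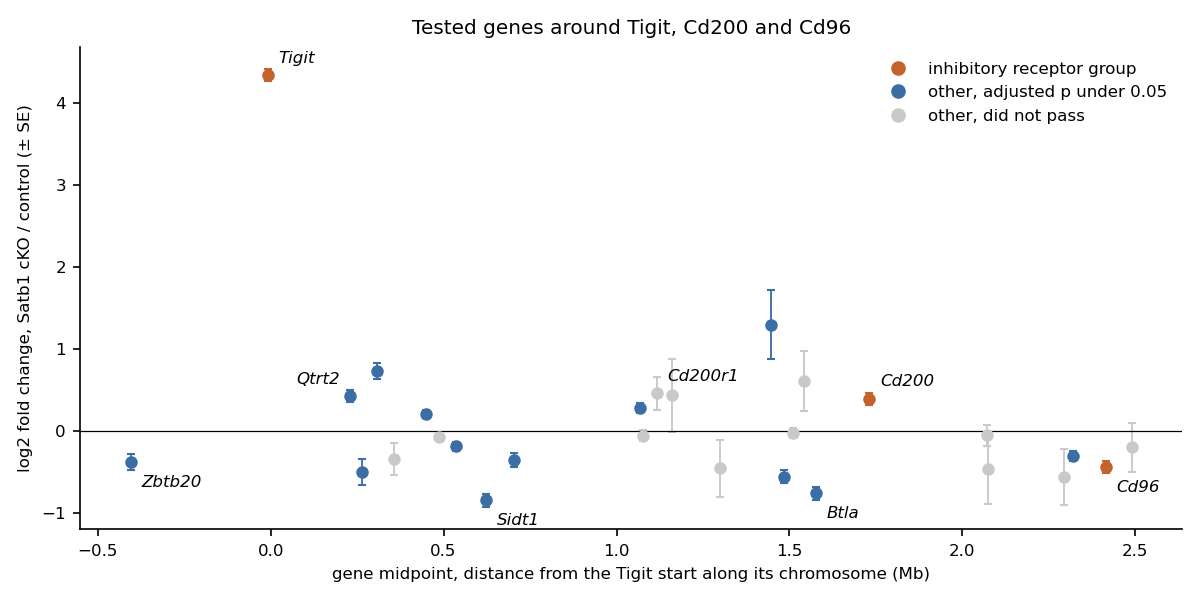
Log2 fold change with SE of tested genes by distance of their midpoint from the Tigit start on chromosome 16 (Mb). Tigit stands at 4.34, while the 25 other tested genes of the stretch that are not in the group lie between -0.84 (Sidt1) and 1.30 (Ccdc80).

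Over all 10 genes of the group, 147 tested neighbours lay within 500 kb, of which 34 rose and 31 fell, or 44.2%, against 42.3% of all tested genes. Lag3 lies between Cd4, 16.1 kb away, and Ptms, 1.98 kb away. Cd4 fell (-1.75, SE 0.038), and Ptms averaged 61.3 ± 1.53 CPM in control and 62.3 ± 1.90 CPM in Satb1 cKO, which did not pass (adjusted p = 0.72 in edgeR). Beside Pvr, Igsf23 at 16.1 kb fell (-4.55, SE 0.328), and Bcl3 at 80.8 kb passed only without control replicate 1 (-0.30, adjusted p = 0.0261 in edgeR). Beside Havcr2, Med7 at 12.2 kb rose (0.35, SE 0.067). The tested protein-coding genes nearest to Cd160, Rnf115 and Gpr89, did not pass. Nor did those nearest to Cd226, Rttn at 46.0 kb and Tmx3 at 1240 kb, the latter beyond the 500 kb used above.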

How the data were processed

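The authors deposited raw counts of reads per gene for 6 libraries. Reads were aligned with STAR 2.7.3a and counted with HTSeq 0.12.4 on mm10, per the submitters' processing notes; the sources used here do not give annotation release and strand setting. The 5 summary lines of each table name no gene and stayed out of library sizes and tests. They held 7.32 to 9.50% (no feature), 5.40 to 5.57% (ambiguous) and 2.92 to 3.16% (several alignments) of all reads. Symbols, positions and exon lengths came from GENCODE M21 (GRCm38), which placed 55141 of 55401 genes. Upstream windows came from RefSeq (GRCm38.p6) and were used for 7 of the 10 genes. Cd226 was left out with chromosome 18, and no window was held for Pvr and Lag3.

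Groups and replicate numbers came from sample titles. Counts were fitted with edgeR 4.0.16 in R 4.3.3 (filterByExpr, TMM, glmQLFit and glmQLFTest with group as the only term), with Benjamini-Hochberg adjustment over 13364 genes and a threshold of 0.05. Each SE is the coefficient divided by the root of its F statistic. Within groups, log2 CPM (prior count 2) had correlations between 0.992 and 0.993. Chi-square over degrees of freedom was 2.09 to 6.90 for every within-group pair, above sampling noise, so no library was merged. Intervals and ratios of low counts cover counting error only. The fit was tested on simulated counts with known changes.

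The genes of the group and all lists were chosen with earlier results of these data known, and 1 gene first listed among the ligands is not reported here and was left out of the list counts. Genes named from the lists were the up to 4 called genes of smallest p in each, with 13 fixed by name, the nearest tested protein-coding neighbours, and the 5 genes most like Tigit. Not each gene that rule takes is printed. Lck, Inpp5d, Ptpn6, Ptpn11, Slamf7, Nt5e, H2-Eb1, H2-Ab1, Lgals3, Sidt1, Ccdc80, Tcf7 and Runx3 are named whether or not that rule takes them. Those outside it were chosen after their values were seen. Alternatives were RLE scaling, DESeq2 1.42.0, no filter on low counts, a replicate block, removal of immunoglobulin, T cell receptor, globin and mitochondrial genes, and leaving out each library.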

Additional observations from a re-analysis of the deposited data

Results flagged for a closer look

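The share of reads that HTSeq left out as ambiguous, because they overlap several genes, was above the level of every control library in every Satb1 cKO library. It averaged 5.55% in Satb1 cKO (SD 0.037) and 5.42% in control (SD 0.015, n = 3 each). Within the group, Cd244a overlaps Ly9, Pvr overlaps Gm16184 and Gm16251, and Cd160 overlaps Pdzk1, and how many ambiguous reads lie in these genes was not tested. The share of reads on no annotated feature also separated the groups, in the other direction and by more, with 9.34% in control (SD 0.159) and 7.45% in Satb1 cKO (SD 0.149, n = 3 each).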

How the results depend on the processing

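Over the alternatives, the log2 fold change of Tigit ranged from 4.26 to 4.38, with both ends from leaving out 1 library, that of Cd226 from -1.24 to -1.05, that of Cd160 from 1.75 to 2.01 and that of Havcr2 from 1.11 to 1.81. All 8 tested genes of the group kept their direction in each alternative. Counts of genes of the group called higher ranged from 4 to 5 and lower from 3 to 4 without 1 library. Cd244a entered the test and was called when control replicate 2 was left out. It also entered without control replicate 3 or Satb1 cKO replicate 3, in DESeq2 and with no filter, and was not called there. Lag3 lost its call without Satb1 cKO replicate 1 or 2. Genes on the pathway lists called higher ranged from 32 to 37 and lower from 17 to 21, and neighbours from 25 to 34 and from 25 to 37. DESeq2 called 2508 genes higher and 2273 lower, against 2885 and 2766 in edgeR. Same-numbered libraries did not deviate together over all genes (correlations of -0.013 to 0.028). Such a correlation cannot show whether the replicate numbers pair the libraries in some genes. With the replicate block, 2861 genes were higher and 2702 lower, 4 and 4 genes of the group were called, and 36 and 20 pathway genes. Among the nearest tested neighbours on both sides of each gene, 5 that did not pass turned direction. When 1 library was left out, Ptms ranged from -0.007 to 0.042, Bcl3 from -0.296 to 0.088, Gm4737 from -0.433 to 0.077, Abhd10 from -0.127 to 0.022 and Rttn from -0.097 to 0.065. Rttn was also below 0 in DESeq2 (-0.001), with no filter (-0.012) and without the immunoglobulin, T cell receptor, globin and mitochondrial genes (-0.003). Zfp157 lost its call without control replicate 3, and Timd2 in DESeq2 and without control replicate 3 or Satb1 cKO replicate 1. The cause was not tested. Depth limits Pvrig and Cd244a, which had 9 and 41 reads over all libraries.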
